A study of Mus musculus with 7 samples.

Results

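The genes of RNA polymerase I (Pol I) and ribosome biogenesis were followed in tumors grown from mouse embryonic fibroblasts (MEFs) with and without nuclear myosin 1 (NM1). The set holds 50 genes selected by a list of gene symbols, namely the subunits and initiation factors of Pol I, proteins of small nucleolar ribonucleoproteins (snoRNPs) and factors that cut, modify and assemble ribosomal RNA (rRNA). All 50 symbols were found among the 46603 Ensembl genes of the count files, and all 50 passed the filter on low counts, with 203 to 50148 counts per gene and tumor piece.

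Pol I transcribes the repeated rRNA genes in the nucleolus into a long precursor. Its recruitment needs the upstream binding factor Ubtf, the TATA-binding-protein complex SL1 with the subunits Taf1a to Taf1d, and Rrn3, which makes the polymerase competent to initiate. snoRNPs then modify the precursor, and large assemblies of processing factors turn it into the 40S and 60S ribosomal subunits. Growing and dividing cells make many ribosomes, and Myc is a known activator of this pathway. NM1, a nuclear isoform of the motor protein Myo1c, is known to associate with Pol I and to take part in rRNA gene transcription.

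KO cells are MEFs of the line CRL-2752 in which NM1 was deleted by CRISPR/Cas9. In KO+NM1 cells, NM1 tagged with HA and V5 was returned to the KO cells by a lentiviral vector under neomycin selection, and single clones were tested by immunoblot. Both groups therefore carry the deletion, and the returned copy lies in a vector. The cells were injected into Balb/c nude mice, which lack a thymus and were females aged 16 weeks. The site is given both as under the skin of the flank and as the mammary pad. The day of collection also differs between sources. Tumors were collected at the end of a 30-day cycle according to the sample descriptions. A KO tumor and a KO+NM1 tumor were each cut into 4 equal pieces, of which 3 KO pieces and 4 KO+NM1 pieces were sequenced. The sources differ on whether 1 tumor or several were used per group, so the spread between pieces, which every error and test here rests on, may hold no difference between mice.

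The total count per piece was 24088309 to 28326568. Levels are given as CPM (counts scaled to library size) after TMM normalization, which sets the libraries level over most genes. KO+NM1 piece 01 stood apart from the other pieces of its group, with a correlation of 0.855 to 0.861 of log2 CPM with them across genes, against 0.977 to 0.986 among the others. The summed level of 7 B and plasma cell markers was 4364 CPM in that piece and 3.99 to 17.8 CPM in the other 3, and the members' calls that change without it are named. The 8 fibroblast markers summed to 9649 to 15650 CPM in the KO pieces and 3508 to 12590 CPM in the KO+NM1 pieces. Of them 1 was called higher and 2 lower in the KO pieces. Their counts do not separate injected from host cells, so they do not check the labelled origin.

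Promoters of some members that moved together, and of some that did not, are shown first. They were picked by hand, and no called member without a motif is among them. RefSeq promoters (GRCm38.p6, 250 bases before to 50 after each start) were at hand for 46 of the 50 genes and were searched on both strands for CACGTG, the E-box bound by Myc with Max, and for CCGGAAG, which holds the core of sites for ETS factors. The motifs do not overlap. The following stretches of 120 bases end at the start site, overlap no annotated exon and read 5′ to 3′ on the gene's strand, with capitals marking a complete motif on either strand (CTTCCGG is CCGGAAG on the other strand).
Nop2, which rose, chr6:125131763-125131882, plus strand: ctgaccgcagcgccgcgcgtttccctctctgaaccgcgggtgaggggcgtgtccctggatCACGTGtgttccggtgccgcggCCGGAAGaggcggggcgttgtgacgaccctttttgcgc
Rrn3, which rose, chr16:13780579-13780698, plus strand: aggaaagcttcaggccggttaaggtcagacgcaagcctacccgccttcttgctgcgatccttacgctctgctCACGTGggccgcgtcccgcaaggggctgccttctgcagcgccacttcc
Cd3eap, which rose, chr7:19359484-19359603, minus strand: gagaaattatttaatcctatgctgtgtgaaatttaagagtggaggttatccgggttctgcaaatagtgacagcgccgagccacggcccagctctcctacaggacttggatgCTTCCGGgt
Taf1a, not called, chr1:183388765-183388884, plus strand: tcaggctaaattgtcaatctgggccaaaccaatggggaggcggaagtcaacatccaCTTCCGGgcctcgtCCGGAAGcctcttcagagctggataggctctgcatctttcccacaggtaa
Nop10, not called, chr2:112261806-112261925, plus strand: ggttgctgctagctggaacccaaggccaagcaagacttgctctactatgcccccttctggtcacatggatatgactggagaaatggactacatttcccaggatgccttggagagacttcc

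CACGTG lay in the promoters of 9 of the 46 members (19.6%), against 8.09% of all 27025 genes in the table and 11.1% of the 11330 tested protein-coding genes. CCGGAAG lay in 19 of the 46 (41.3%), against 9.93% and 18.1%. The 9 members with CACGTG, which are Cd3eap, Rrn3, Mybbp1a, Nop2, Pes1, Utp4, Utp18, Utp20 and Wdr43, were all called higher, with a median log2 fold change of 1.67, while 29 of the 37 without it were higher, with a median of 1.16. Members with and without CCGGAAG were higher in 16 of 19 and 22 of 27 cases, with medians of 1.16 and 1.24. Among tested protein-coding genes, 31.1% of those with CACGTG and 26.8% of those without were higher, and 30.1% and 26.6% with and without CCGGAAG. These shares describe letters in a fixed window, and the differences between genes with and without a motif were not tested. The CACGTG of Cd3eap and the CCGGAAG of Rrn3 lie outside the stretches printed above.

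The comparison asks how the expression of these genes differed between tumors of KO cells and tumors of KO cells to which NM1 was returned. Most members were expressed at a higher level in the KO pieces, and none was called lower. Under both thresholds, 2-fold or more with an adjusted p below 0.05 in edgeR's quasi-likelihood test, 30 of the 50 members were higher, where 17.1% of the 16887 genes tested were higher and 20.3% were lower. By the adjusted p alone, 41 members were higher, against 25.7% of all genes tested higher and 24.5% lower. No member was lower, and none had a negative change at an unadjusted p under 0.05 in edgeR, whereas DESeq2's Wald test called 1 lower, Taf1a, and limma's voom 2, Taf1a and Nop10. All 3 KO pieces exceeded all 4 KO+NM1 pieces for 42 members, against 30.5% of all genes tested, and the reverse held for 0 members, against 26.4%. Differences are given as the log2 fold change of KO minus KO+NM1, written log2 change, with its standard error (SE). Its median over the members was 1.23, or 2.35-fold, with a range of -0.54 to 2.48, beside a median of -0.00172 over all genes tested. Without KO+NM1 piece 01, 44 members were higher and 1, Taf1a, was lower by the adjusted p, where the shares of all genes tested rose to 35.8% and 36.0%. Without KO piece 01, 29 members were higher, where the share of all genes tested fell to 16.7%. Of the 41 calls, 28 held in all 16 alternatives, and those of Polr1c, Polr1e, Taf1d, Utp4, Utp14a, Utp15, Nop14, Nat10, Ddx10, Pes1, Nip7, Noc2l and Ddx18 were lost in at least 1.

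The members together took 0.882%, 0.695% and 0.679% of all counts in the 3 KO pieces, in order of piece number, and 0.356%, 0.201%, 0.168% and 0.230% in the 4 KO+NM1 pieces. In each group piece 01 was the highest library for most members, namely for 48 of 50 among the 3 KO pieces and for 43 of 50 among the 4 KO+NM1 pieces. Relative to the KO+NM1 mean of each gene, the median member stood at 2.72, 2.19 and 2.11 in the KO pieces and at 1.35, 0.888, 0.842 and 0.912 in the KO+NM1 pieces. The spread of log2 CPM was larger among the KO+NM1 pieces for 39 members, with a median SD of 0.318 against 0.201 in the KO pieces.

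**Figure D1:**
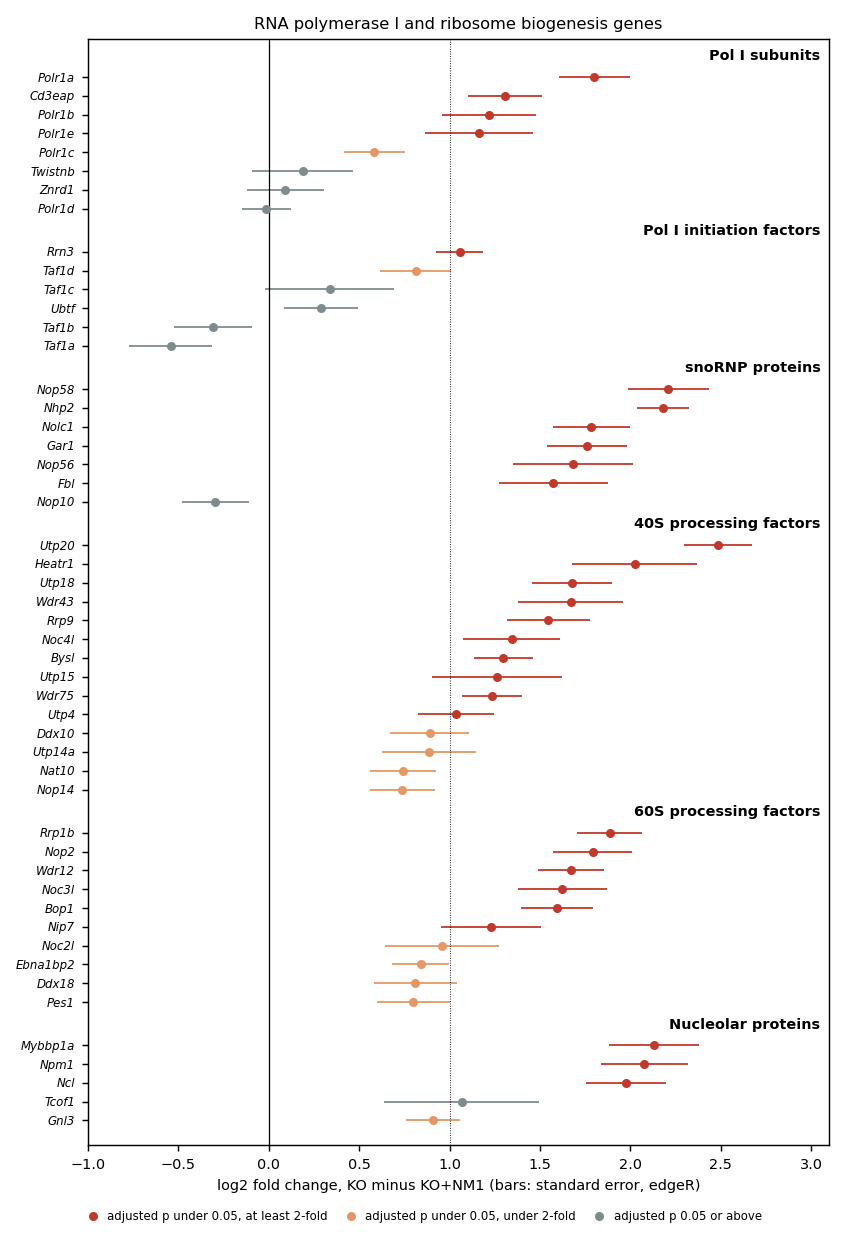
Log2 fold change (KO minus KO+NM1, horizontal axis) of each of the 50 genes by role, with points for the edgeR estimate and bars for its standard error, n = 3 and 4 pieces. The 40S and 60S processing factors all lie to the right of 0, and the 4 points left of 0 are Polr1d, Taf1a, Taf1b and Nop10.

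Markers of several other cell types, though not of all, and of proliferation also differed between the groups. The 7 proliferation markers summed to 2024 to 2605 CPM in the KO pieces and 78.6 to 257 CPM in the KO+NM1 pieces, with all 7 called higher. Mki67 among them, a protein of dividing cells, averaged 395 ± 81.3 CPM (SD, n = 3) and 9.01 ± 7.67 CPM (SD, n = 4). Myc averaged 108 ± 23.2 and 33.9 ± 8.93 CPM, which gave a log2 change of 1.67 (adjusted p = 0.00205, edgeR). The 8 white adipocyte markers summed to 29.0 to 175 CPM in the KO pieces and 4060 to 30960 CPM in the KO+NM1 pieces, with Lep at 0 in KO piece 01, and all 8 were lower. The 8 skeletal muscle markers, all higher, summed to 2325 to 20390 CPM in the KO pieces and 6.82 to 32.1 CPM in the KO+NM1 pieces, where Myh4 was at 0 in pieces 03 and 04 and Actn3 in piece 03. Of the 7 macrophage markers 6 were higher, and the sum was 2193 to 2502 against 414 to 569 CPM. All 5 endothelial and all 5 erythroid markers were lower. Of 4 brown adipocyte markers 3 were lower, with sums of 6.07 to 33.0 CPM in the KO pieces against 393 to 3467 CPM. Of 5 tested mammary epithelium markers 3 were lower, with sums of 3.67 to 65.6 against 405 to 1733 CPM. The keratinocyte markers summed to 7.43 to 1065 CPM against 60.04 to 441 CPM, and the groups overlapped. The mitochondrially encoded genes took 1.81% to 2.14% of the counts in the KO pieces against 5.11% to 18.5%. The part of these cell types in the members' difference was not tested, and in bulk RNA fewer cells of a type and less RNA per cell cannot be told apart. Myo1c, whose counts do not separate NM1 from the other isoforms or injected from host cells, averaged 303 ± 12.1 CPM (SD, n = 3) without and 408 ± 23.1 CPM (SD, n = 4) with the returned NM1.

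Over all genes tested, 25.7% were higher and 17.1% at least 2-fold higher. Of the 8 Pol I subunits measured, 5 were higher in the KO pieces, 4 of them at least 2-fold, and 3 did not pass the test. The largest difference was that of Polr1a, the largest and catalytic subunit (ENSMUSG00000049553, GRCm38 chr6:71909053-71984935). It reached 128, 102 and 102 CPM in the KO pieces and 41.0, 24.6, 31.6 and 30.1 CPM in the KO+NM1 pieces, which gave a log2 change of 1.80 (SE 0.20, adjusted p = 0.000755). The lowest KO piece lay well above the highest KO+NM1 piece. Polr1b, the second-largest subunit, which shares the active site with Polr1a, was measured at 48.4, 37.3 and 34.1 CPM against 24.5, 13.3, 13.8 and 17.1 CPM, which gave a log2 change of 1.22 (SE 0.26, adjusted p = 0.0075). Both groups were highest in piece 01, and they did not overlap.

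Polr1e and Cd3eap encode the heterodimer that is particular to Pol I and aids initiation and elongation. Polr1e was at 33.1, 18.7 and 20.6 CPM in the KO pieces and 14.9, 8.99, 10.9 and 8.35 CPM in the KO+NM1 pieces, with a log2 change of 1.16 (SE 0.30, adjusted p = 0.0153). Cd3eap was at 30.5, 28.7 and 24.0 CPM against 8.83, 11.6, 10.5 and 13.9 CPM, with a log2 change of 1.31 (SE 0.21, adjusted p = 0.00227). Neither gene overlapped between the groups. For Cd3eap, unlike most members, piece 01 was the lowest of the KO+NM1 pieces. KO piece 01 lifted the Polr1e mean, and without it the log2 change was 0.75 and not called (adjusted p = 0.0901, edgeR).

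Polr1c and Polr1d form a pair that Pol I shares with RNA polymerase III, and of which Polr1c alone was called. Polr1c was at 73.3, 57.5 and 53.8 CPM in the KO pieces and 48.4, 40.2, 35.1 and 40.3 CPM in the KO+NM1 pieces, which gave a log2 change of 0.59 (SE 0.17, adjusted p = 0.024) under 2-fold. This call was lost without any single library other than KO+NM1 piece 01, with an adjusted p of 0.0588 to 0.177 in edgeR. It was also lost with upper-quartile scaling (0.0552), with every gene of at least 1 count (0.0761) and with the piece number as a block (0.0505). Polr1d was at 76.7, 71.3 and 70.8 CPM against 69.1, 77.8, 83.6 and 63.8 CPM, with a log2 change of -0.01 (SE 0.14, adjusted p = 0.949). The range of its KO pieces lay within that of its KO+NM1 pieces.

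Znrd1, a small zinc-ribbon subunit that takes part in RNA cleavage, and Twistnb, a subunit of the stalk, were not called. Znrd1 was at 22.3, 22.7 and 21.9 CPM in the KO pieces and 28.4, 19.4, 16.4 and 19.3 CPM in the KO+NM1 pieces, which gave a log2 change of 0.09 (SE 0.21, adjusted p = 0.741) whose sign turned in 7 of 16 alternative settings. Twistnb was at 24.3, 20.1 and 20.2 CPM against 29.0, 14.6, 16.3 and 15.6 CPM, which gave a log2 change of 0.19 (SE 0.28, adjusted p = 0.602), and its sign turned without KO piece 01. For both genes KO+NM1 piece 01 was the highest of all 7 libraries and the other 3 KO+NM1 pieces lay below the KO pieces.

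Per kilobase of the longest annotated transcript, the subunits differed in level in both groups. Mean CPM per kilobase in the KO pieces was 61.0 for Polr1d, 46.8 for Polr1c, 30.0 for Znrd1, 12.4 for Cd3eap, 12.0 for Polr1a, 9.99 for Polr1b, 8.09 for Polr1e and 4.98 for Twistnb. In the KO+NM1 pieces the same quantity was 61.5 for Polr1d, 31.2 for Polr1c, 28.1 for Znrd1, and 3.45 to 5.01 for the other 5. Levels across genes also depend on which transcript is used, which counts per gene do not show.

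**Figure D2:**
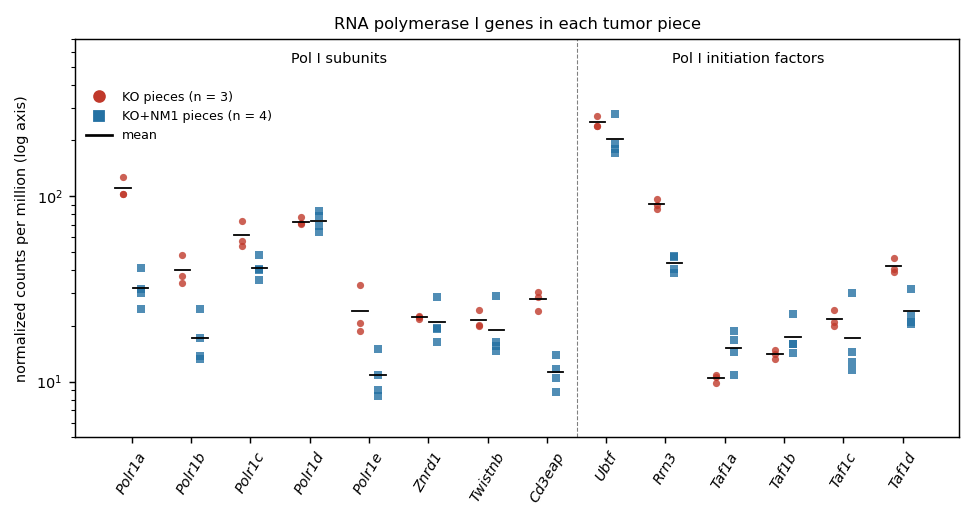
Normalized CPM (log axis) of the 8 Pol I subunits and 6 initiation factors in each tumor piece, circles for the 3 KO and squares for the 4 KO+NM1 pieces, with bars at the group means. Polr1a, Polr1b, Polr1c, Polr1e, Cd3eap, Rrn3 and Taf1d do not overlap between the groups, and the other 7 genes do. Of all genes tested, 30.5% are likewise higher in KO without overlap, and 26.4% are lower without overlap.

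Of the 6 Pol I initiation factors, 2 were higher in the KO pieces, 1 of them at least 2-fold, and 4 did not pass the test. The share higher, 33.3%, was near the 25.7% of all genes tested. Rrn3 (ENSMUSG00000022682, GRCm38 chr16:13780708-13814839), whose promoter with CACGTG is printed above, was at 96.2, 85.8 and 89.1 CPM in the KO pieces and 47.2, 38.7, 47.5 and 40.3 CPM in the KO+NM1 pieces, which gave a log2 change of 1.06 (SE 0.13, adjusted p = 0.00107). The pieces of each group lay close together and the groups far apart. Taf1d, a subunit of SL1, was at 46.4, 40.5 and 39.0 CPM against 31.7, 20.8, 20.4 and 22.7 CPM, which gave a log2 change of 0.81 (SE 0.19, adjusted p = 0.0117). The Taf1d locus also holds snoRNA genes that share exon bases with it and are counted as genes of their own. How reads in the shared bases were assigned is not known here. Exons of Nop56, Nop58, Ncl and Gnl3 share bases with snoRNA genes as well.

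The other SL1 subunits went in different directions, none past the threshold. Taf1a was at 10.9, 10.5 and 9.84 CPM in the KO pieces and 18.8, 14.4, 10.8 and 16.7 CPM in the KO+NM1 pieces, which gave a log2 change of -0.54 (SE 0.23, adjusted p = 0.0894), the lowest of the set. It overlapped only through KO+NM1 piece 03, and without that piece it was called lower (log2 change -0.69, adjusted p = 0.0333, edgeR). Taf1b, with 14.9, 14.1 and 13.2 CPM against 23.3, 16.0, 14.2 and 16.0 CPM, had a log2 change of -0.31 (SE 0.22, adjusted p = 0.277). Taf1c, with 24.2, 21.1 and 20.0 CPM against 30.0, 12.8, 11.6 and 14.5 CPM, had a log2 change of 0.34 (SE 0.36, adjusted p = 0.458). KO+NM1 piece 01 was the highest of the 7 libraries for all of Taf1a, Taf1b and Taf1c, and without it Taf1c was called higher in the KO pieces (log2 change 0.62, adjusted p = 0.00649, edgeR). Of the exon bases of Taf1c, 16.7% overlap Dnaaf1 on the other strand.

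Ubtf, which binds along the active rRNA genes, was the most highly expressed Pol I factor per kilobase, at 53.3 CPM per kilobase in the KO and 43.6 in the KO+NM1 pieces. Its CPM was 271, 239 and 240 in the KO pieces and 278, 190, 170 and 180 in the KO+NM1 pieces, which gave a log2 change of 0.29 (SE 0.20, adjusted p = 0.269). The groups overlapped through KO+NM1 piece 01, without which Ubtf was called higher (log2 change 0.35, adjusted p = 0.0158, edgeR). With that piece left out, 9 of the 14 Pol I subunits and factors were called higher in place of 7, while the share over all genes rose from 25.7% to 35.8%.

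Of the 7 snoRNP proteins, 6 were higher by 2-fold or more, against 17.1% of all genes tested. The other 1, Nop10, did not pass the test. Nop58, a core protein of the box C/D snoRNPs that guide 2′-O-methylation, had the largest difference (ENSMUSG00000026020, GRCm38 chr1:59684971-59719044). It was at 262, 201 and 205 CPM in the KO pieces and 65.5, 43.5, 36.7 and 46.4 CPM in the KO+NM1 pieces, which gave a log2 change of 2.21 (adjusted p = 0.000611). Its partner Nop56 was at 243, 193 and 176 CPM against 107, 48.1, 44.2 and 55.1 CPM, which gave a log2 change of 1.68. Fibrillarin (Fbl), the methyltransferase of the same particles, averaged 114 ± 14.3 CPM (SD, n = 3) and 38.2 ± 15.9 CPM (SD, n = 4). All 3 box C/D proteins were higher, with log2 changes of 1.57 to 2.21.

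Among the proteins of the box H/ACA snoRNPs, which guide pseudouridylation, Nhp2 and Gar1 were higher in the KO pieces and Nop10 was not called. Nhp2 (ENSMUSG00000001056, GRCm38 chr11:51619735-51623714) was at 225, 178 and 170 CPM in the KO pieces and 45.2, 41.9, 42.6 and 38.6 CPM in the KO+NM1 pieces, which gave a log2 change of 2.18 (adjusted p = 0.000229). Its KO+NM1 pieces were nearly level. Gar1 averaged 74.5 ± 6.15 CPM (SD, n = 3) and 22.0 ± 6.17 CPM (SD, n = 4), which gave a log2 change of 1.76. Nop10, which binds the same particle, was at 52.2, 49.7 and 40.3 CPM against 52.7, 56.8, 74.1 and 48.8 CPM, which gave a log2 change of -0.29 (adjusted p = 0.226), and its groups overlapped. Nolc1, a chaperone of snoRNPs, had a log2 change of 1.78. Mean CPM per kilobase was 183 for Nhp2 and 42.7 for Nop10 in the KO pieces, and 40.4 for Nhp2 and 52.4 for Nop10 in the KO+NM1 pieces.

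All 14 factors of the small subunit were higher in the KO pieces by the adjusted p, 10 of them at least 2-fold, with log2 changes of 0.74 to 2.48 and a median of 1.28. In none of them did the groups overlap. Among all genes tested, 30.5% were also free of overlap with KO higher, and 26.4% with KO lower. Utp20, which is needed for early cleavages of the precursor, had the largest difference of all 50 genes (ENSMUSG00000004356, GRCm38 chr10:88746607-88826804). It was at 167, 121 and 131 CPM in the KO pieces and 30.5, 21.6, 21.4 and 26.4 CPM in the KO+NM1 pieces. The log2 change of Utp20 was 2.48, or 5.59-fold (adjusted p = 0.000302, edgeR). Nop14, a part of the same early particle, had the smallest, with 58.7, 51.0 and 53.1 CPM against 40.3, 31.5, 25.1 and 33.1 CPM and a log2 change of 0.74.

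The small-subunit members that join the nascent precursor first, with Heatr1, Utp4, Utp15 and Wdr43 among them, had log2 changes of 2.02, 1.04, 1.26 and 1.67. Wdr43 was at 190, 145 and 135 CPM in the KO pieces and 76.4, 37.9, 37.5 and 44.6 CPM in the KO+NM1 pieces. Rrp9, a protein of the U3 snoRNP, was at 94.96, 77.9 and 71.3 CPM against 38.6, 26.9, 20.7 and 25.3 CPM, which gave a log2 change of 1.55. Over all pieces, Rrp9 and Wdr43 had the highest mean levels of the group per kilobase. The other members ran from Nat10, which acetylates rRNA, at 0.74, through Ddx10 and Utp14a, both at 0.89, Wdr75 at 1.24, Bysl at 1.30 and Noc4l at 1.34, to Utp18 at 1.68. The 4 under 2-fold were Nop14, Nat10, Ddx10 and Utp14a. Without KO piece 01, 9 of the 14 were called. The calls of Utp14a and Utp15 were lost without any single library other than KO+NM1 piece 01. Of the exon bases of Utp14a and Bysl, 11.4% and 9.37% overlap genes on the other strand.

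All 10 factors of the large subunit were higher as well, 6 of them at least 2-fold. Their log2 changes were 0.80 to 1.89, with a median of 1.41. None overlapped between the groups, where 30.5% of all genes tested were free of overlap with KO higher and 26.4% with KO lower. Rrp1b had the largest difference, with 75.9, 61.9 and 58.0 CPM in the KO pieces and 20.4, 14.9, 15.5 and 19.9 CPM in the KO+NM1 pieces. Bop1, Pes1 and Wdr12 form the PeBoW complex, which is needed to process the rRNA of the large subunit. Bop1 was at 195, 155 and 152 CPM against 73.7, 49.8, 49.2 and 48.9 CPM, which gave a log2 change of 1.59. Pes1 was at 150, 110 and 116 CPM against 94.7, 66.7, 63.7 and 62.9 CPM, which gave a log2 change of 0.80, the smallest of the group. The 3 subunits of this complex thus had values of 0.80 to 1.67, with Wdr12 at the upper end, and the differences between them were not tested. Nop2, an rRNA methyltransferase, had a log2 change of 1.79, Noc3l of 1.62, Nip7 of 1.23, Noc2l of 0.96, Ebna1bp2 of 0.84 and Ddx18 of 0.81. Of the exon bases of Noc2l, 20.9% overlap Samd11 on the other strand. The calls of Noc2l and Ddx18 were lost without any single library other than KO+NM1 piece 01. Without KO piece 01, 6 of the 10 were called.

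Of the 5 abundant nucleolar proteins, 4 were higher in the KO pieces, 3 of them at least 2-fold. Over all genes tested, the shares were 25.7% and 17.1%. Npm1, a histone and ribosome chaperone that shuttles out of the nucleolus (ENSMUSG00000057113, GRCm38 chr11:33152287-33163206), had the highest level of the set per kilobase. It was at 1161, 859 and 861 CPM in the KO pieces and 309, 202, 180 and 219 CPM in the KO+NM1 pieces, which gave a log2 change of 2.08. Nucleolin (Ncl), which binds the rRNA precursor, was at 1672, 1339 and 1349 CPM against 485, 321, 313 and 359 CPM, which gave a log2 change of 1.98. In both genes the lowest KO piece was more than 2-fold above the highest KO+NM1 piece.

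Mybbp1a, a nucleolar protein that binds Myb and is known to act on rRNA synthesis and processing, was at 689, 470 and 483 CPM in the KO pieces and 173, 105, 102 and 120 CPM in the KO+NM1 pieces, which gave a log2 change of 2.13. Gnl3 (nucleostemin), a GTPase of proliferating cells, had a smaller difference, with 69.0, 64.8 and 63.2 CPM against 42.7, 33.2, 30.2 and 34.1 CPM and a log2 change of 0.91. Tcof1 (treacle), which links Ubtf to Pol I, was at 162, 144 and 143 CPM against 141, 48.6, 44.6 and 51.2 CPM. Its log2 change was 1.07 (SE 0.43, adjusted p = 0.0739), not called although the 3 KO pieces exceeded all 4 others. Without KO+NM1 piece 01, which lay close to the KO pieces, it was called at a log2 change of 1.51 (adjusted p = 1.75e-05, edgeR).

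**Figure D3:**
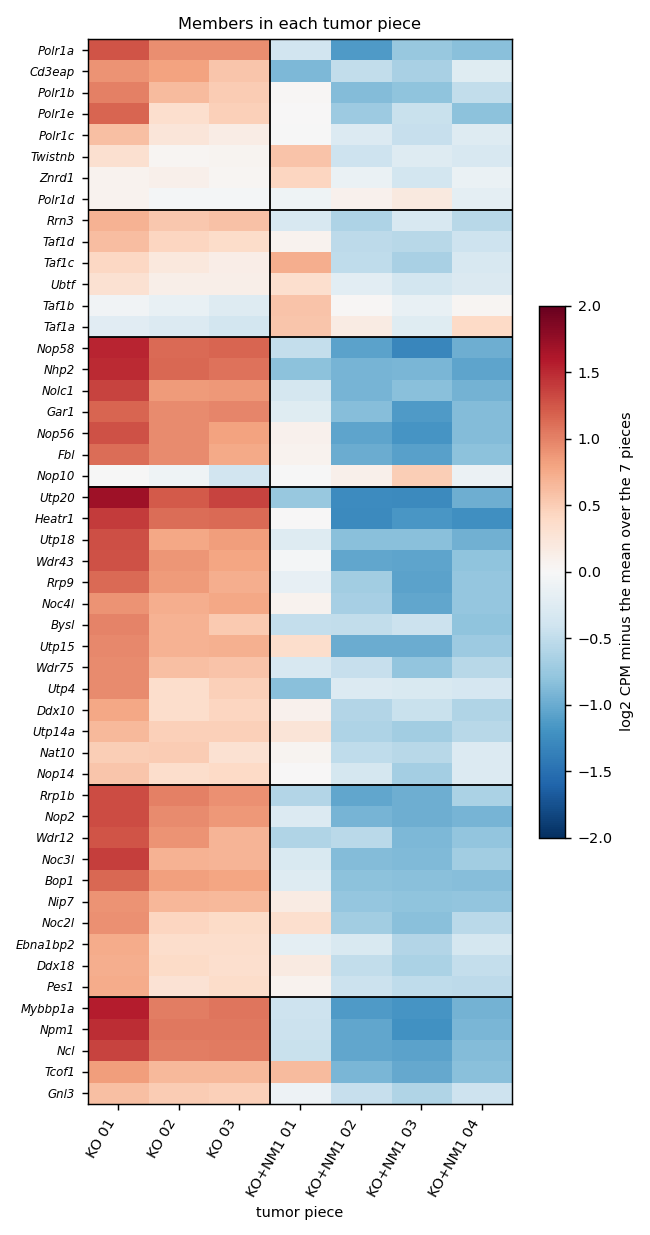
Log2 CPM of each gene in each of the 7 tumor pieces minus its mean over the pieces (colour scale from -2 to 2), genes in rows by role, with lines between the roles and between KO and KO+NM1. KO piece 01 is the highest KO piece for 48 genes, and KO+NM1 piece 01 the highest KO+NM1 piece for 43.

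Other genes of the pathway, listed by function, were counted beside the members. Of 154 tested genes of ribosome assembly and the nuclear polymerases, 103 (66.9%) passed the adjusted p as higher in KO and 6 as lower. Their median log2 change was 0.83. Over all genes tested, 25.7% were higher and 24.5% lower, and these shares also stand beside the counts per list below. Without KO+NM1 piece 01, 119 of the 154 were higher and 8 lower, where the shares over all genes tested rose to 35.8% and 36%. Of 37 other small-subunit factors 28 were higher and 1 lower, with Tsr1 highest at 2.73 and Imp3, a U3 snoRNP protein, lower at -0.53. Imp3 was at 43.0, 44.9 and 44.1 CPM in the KO pieces and 70.0, 66.0, 59.1 and 59.7 CPM in the KO+NM1 pieces. Of 45 other large-subunit factors 34 were higher and 1 lower, the extremes being Lyar at 1.97 and Nop53 at -0.88. Nop53 was at 140, 147 and 134 CPM against 362, 246, 195 and 231 CPM, again without overlap. Of 12 other snoRNP factors 9 were higher, led by Snu13 at 2.11. The 23 genes of the RNA exosome and of RNases MRP and P, which trim and cut the precursor, had 13 higher and 2 lower, from Exosc8 at 2.24 to Rpp14 at -0.85.

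Genes of the polymerases had medians of 0.46 to 0.72. The 7 genes that Pol I shares with another polymerase or that act with it, Tbp and Ttf1 among them, had 4 higher and 0 lower, with a median of 0.72 and the largest value for Polr2f, 1.22. Of 8 Pol II subunits 4 were higher and 0 lower, with a median of 0.46 and Polr2b highest at 1.21. Of 22 Pol III subunits and factors 11 were higher and 2 lower, with a median of 0.55, and Polr3gl had the largest fall, at -1.02. Of the 79 cytosolic ribosomal protein genes, whose reads may be shared with pseudogenes, 11 were higher and 0 lower, which is 13.9% against 25.7% of all genes tested, with a median of 0.21 and Rpl34 highest at 1.84. The lists with 0 lower genes also had 0 at an unadjusted p under 0.05 in edgeR. The differences between lists were not tested.

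**Figure D4:**
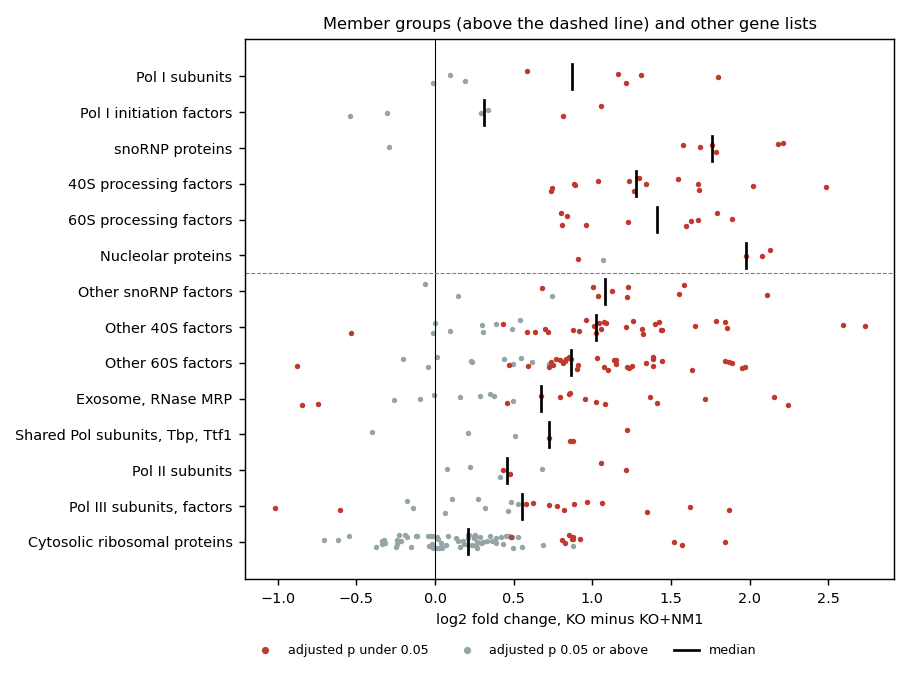
Log2 fold change (KO minus KO+NM1) of every tested gene in the 6 role groups of members (above the dashed line) and in 8 other lists, coloured by the adjusted p, with bars at the medians. Medians run from 0.31 for the Pol I initiation factors to 1.98 for the nucleolar proteins among the members, and the cytosolic ribosomal proteins have a median of 0.21.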

How the data were processed

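RNA of each tumor piece was made into libraries with the NEBNext Ultra II RNA kit and sequenced on the NextSeq platform. Per the labels and the study's methods, the authors used Trimmomatic 0.36 for trimming, HISAT2 2.0.4 for alignment to GRCm38, SAMtools 0.1.19 for sorting and HTSeq for counting per gene. The deposited values are these raw counts, not normalized. The annotation release and the strand setting of the counting are not given in the sources used here, so reads of genes that overlap on opposite strands may not be told apart.

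Groups were taken from the sample titles. GENCODE M21 gave a symbol to 46005 of 46603 genes. The fit was made with edgeR 4.0.16 in R 4.3.3. Its filterByExpr (minimum count 10) left 16887 genes, which were scaled by TMM and tested by quasi-likelihood between the KO and KO+NM1 pieces, all 7 libraries included, with Benjamini-Hochberg correction of the p-values. Pieces of a group varied by a biological coefficient of variation of 46.7%. A call is an adjusted p under 0.05, and where 2-fold is named the log2 change also had a size of 1 or more, as in the study. Standard errors are those of the fitted coefficients. The limit that a count of 0 allows, 3 counts, was 0.0991 to 0.148 CPM and covers counting error only. Lengths are those of the longest protein-coding transcript in the GENCODE basic set. Marker, role and pathway lists were taken from general knowledge of these genes. The members and lists were chosen with earlier results of these data known. Riok2 and Exosc6 were not analysed here.

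Values in every library are given for all Pol I subunits and factors and, in each other role, for the genes with the largest and smallest change and the 2 with the highest CPM per kilobase. Tcof1 was added after its values were seen. From each pathway list the largest rise and fall past the threshold are named, apart from 1 gene not reported here. The number of a piece in the labels was taken as a name only, and whether it pairs pieces was checked by the correlation of deviations from the group means across genes, which was 0.0802, 0.102 and -0.0165 for pieces 01 to 03. The alternatives were other scalings, other filters, DESeq2 1.42.0, voom of limma 3.58.1 with quality weights, the piece number as a block and each library left out. The steps were tested on simulated data.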

Additional observations from a re-analysis of the deposited data

Results flagged for a closer look

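Among the 4 KO+NM1 pieces, 10 of the 50 members had a piece far from the other 3, by the gap between the extreme piece and its neighbour as a share of the range of the group (above Dixon's critical value for 4 samples). Chance flags about 1 in 20 values, and the genes of 1 library are not independent. KO+NM1 piece 01 was the high piece for Nip7 (share 0.975; 42.0 CPM against 21.4 to 21.8), Bop1 (0.957), Nop2 (0.932), Heatr1 (0.907; 38.6 CPM against 15.9 to 17.2), Tcof1 (0.88), Pes1 (0.857), Utp14a (0.856) and Twistnb (0.84). It was the low piece for Utp4 (0.878), at 27.5 CPM against 38.9 to 40.8 CPM. KO+NM1 piece 04 was the low piece for Bysl (0.833), at 22.2 CPM against 27.5 to 28.7 CPM. In the same piece 01 the B and plasma cell markers summed to 4364 CPM, and their part in these values was not tested. Of these 10 genes, Tcof1 and Twistnb were not called, and the other 8 were higher in the KO pieces by the adjusted p.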

How the results depend on the processing

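Over 16 alternatives the count of members at least 2-fold higher ranged from 23 (without KO piece 01) to 35 (library size alone), beside 30, and the count by the adjusted p from 29 (without KO piece 01) to 45 (voom), beside 41. The share of all genes tested that were higher was 16.7% and 41.7% in those 2 fits, beside 25.7%. The median log2 fold change ranged from 1.01 to 1.38, while scaling and filters moved the median of all genes to between -0.159 (upper quartile) and 0.166 (library size alone). Of the 41 members called, 28 were called in every alternative. Members lower by the adjusted p numbered 1 with DESeq2's size factors, 1 with upper-quartile scaling, 1 with DESeq2's Wald test and 2 with voom, and 0 to 1 with a library left out. Pathway genes lower numbered 2 with library size alone and 3 with the replicate block, beside 6. The cause of these changes was not tested. With a library left out, the log2 fold change ranged from -0.169 to 0.038 for Polr1d, from -0.0363 to 0.153 for Znrd1 and from -0.02 to 0.346 for Twistnb. Signs turned for Polr1d with library size alone (0.186) and without KO+NM1 piece 03 (0.038), for Twistnb without KO piece 01 (-0.02), and for Znrd1 with DESeq2's size factors (-0.00136), upper-quartile scaling (-0.0604), every gene with at least 1 count (-0.00283), without KO pieces 01 (-0.0173), 02 (-0.0363) or 03 (-0.00643) and without KO+NM1 piece 03 (-0.0226). The piece numbers were not taken to pair the samples, since the correlations of pieces with the same number were not all above 0.1. Pieces with different numbers correlated at -0.12 to 0.109, a range that holds the same-number values of 0.0802, 0.102 and -0.0165. With the replicate block 38 members were higher, with Polr1c, Utp4 and Utp14a no longer called.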

Other observations

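Some values near the pathway belong to no comparison of the report and were chosen after they were seen. Of 1507 snoRNA genes in the files, 71 passed the filter on low counts, with a median log2 fold change of 0.96. By the adjusted p of edgeR the KO pieces were higher for 22 and lower for 2. The share higher, 31.0%, was near the 25.7% of all genes tested, of which 24.5% were lower. Standard RNA libraries recover such short RNAs poorly. Of 12 tested long noncoding host genes of snoRNAs, 1 was higher, Snhg17, and 6 were lower. Gas5, which hosts many box C/D snoRNAs, was at 69.5, 77.8 and 82.5 CPM in the KO pieces and 244, 147, 117 and 167 CPM in the KO+NM1 pieces, which gave a log2 fold change of -1.14 (adjusted p = 0.00985, edgeR). Its groups did not overlap and its direction was opposite to that of the box C/D proteins Fbl, Nop56 and Nop58.

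Within single libraries, partners of the same complex stood in different proportions. The ratio of Nhp2 to Nop10, both in CPM per kilobase, was 4.59, 3.80 and 4.49 in the KO pieces and 0.913, 0.785, 0.612 and 0.843 in the KO+NM1 pieces. The ratio of Polr1a to Polr1d was 0.216, 0.186 and 0.188 against 0.0770, 0.0410, 0.0491 and 0.0612. Neither ratio depends on the scaling between libraries, and neither was tested, since the pairs were picked for their difference.

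Gm26917 lies on chr17 of GRCm38, where the assembly holds a copy of an rRNA transcription unit. It was at 605, 348 and 808 CPM in the KO pieces and 191, 117, 97.2 and 65.9 CPM in the KO+NM1 pieces, while Gm42418 next to it was at 141, 100 and 159 CPM against 214, 73.4, 58.2 and 71.5 CPM and overlapped. Reads of rRNA that remain after library preparation can be counted there, and these values are not a measure of Pol I transcription.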
